A study of Mus musculus with 14 samples.

Results

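The 47 genes described here encode the enzymes and carriers that take glucose carbon into and around the mitochondrion: 14 of glucose uptake and glycolysis, 10 of pyruvate entry, 12 of the tricarboxylic acid (TCA) cycle, and 11 of the shuttles and the cytosolic enzymes that work beside the cycle. They were chosen by symbol from the 52459 genes of the count table, and all 47 had enough reads to be tested, as did 16350 genes in all. The cells came from dispersed pancreatic islets of male C57BL/6J mice aged 7 months, with no transgene or treatment named, and were sorted by fluorescence on acidic beta-galactosidase activity, a lysosomal enzyme activity that is widely used as a sign of cellular senescence. 7 libraries of beta-galactosidase-negative cells were set against 7 libraries of beta-galactosidase-positive cells, numbered 1 to 7 in each group, and the sort was by this activity, with no gate on cell type named. Nothing in the labels ties a numbered library to an animal of its own, so the p-values cover only how far these libraries differ, which may be technical.

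Glycolysis splits glucose into pyruvate in the cytosol. Beta cells are known for sending most of that pyruvate into mitochondria, through the mitochondrial pyruvate carrier and then pyruvate dehydrogenase or pyruvate carboxylase, and for making little lactate, so that the TCA cycle and the NADH shuttles follow the supply of glucose and couple it to insulin release. Textbook accounts also hold that hypoxia-inducible factor raises many glycolytic genes together with Pdk1, the kinase that switches pyruvate dehydrogenase off.

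Libraries held 11060144 to 24577025 counted reads. The labelled tissue was borne out by its markers: 9 beta cell markers summed to 103000 to 154000 CPM (reads scaled to the size of the library with TMM, a correction for its composition) in negative libraries and to 99400 to 130000 CPM in positive ones. Other cells differed between the sorted fractions. The 10 macrophage markers summed to 17.3 to 23.5 CPM in negative and 75.3 to 659 CPM in positive libraries, and the 11 endothelial markers to 7.69 to 68.1 and 357 to 1210 CPM, with positive libraries 6 and 7 the highest in both lists and no marker of either list at 0 over all negative libraries. The 3 delta cell markers summed to 81.7 to 435 CPM in negative and 308 to 2200 CPM in positive libraries, and the 12 acinar markers to 140 to 1460 and 28.7 to 885 CPM, lower among positive cells in 7 of 7 pairs. The 10 pericyte and fibroblast markers summed to 1450 CPM in negative library 3, with Col3a1 at 631 CPM, against 15.7 to 70.4 CPM in the other negative and 41.4 to 245 CPM in the positive libraries. Negative library 3 also held the lowest beta cell marker sum of its group (103000 CPM). The 5 alpha cell markers summed to 10400 to 28000 CPM in negative and 3410 to 27400 CPM in positive libraries, higher in 3 of 7 pairs. The 6 ductal markers summed to 629 to 1060 and 754 to 1230 CPM, higher in 6 of 7 pairs. The 2 PP cell markers summed to 1220 to 3570 and 868 to 5010 CPM, higher in 5 of 7 pairs. The part of these cells in the results below was not tested. In such bulk libraries fewer cells of a type and less RNA per cell cannot be told apart.

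Libraries with the same number resembled each other, so each gene was fitted both without and with the number as a block, which compares the fractions within the 7 pairs. Without the block, 3 of the 47 genes were higher in positive cells and 0 were lower at an adjusted p below 0.05 (edgeR's quasi-likelihood test, Benjamini-Hochberg over all genes tested). At an unadjusted p below 0.05 in the same edgeR test, 4 were higher and 3 lower, beside 3457 of all 16350 genes in either direction. DESeq2 called the same 3 lower, namely Pfkm, Gpd1 and Gpd2 (DESeq2 adjusted p = 0.0329, 0.0492 and 0.0402). The edgeR count is 6.38% of the members, against 8.03% of all genes tested (6.40% higher and 1.63% lower). With the block, 14 were higher and 3 lower, 36.2% of the members, against 19.6% of all genes (11.8% higher and 7.77% lower). The 3 genes called without the block were Slc2a1, Cs and Got1, and all 3 were called with it too. All 17 calls within pairs were of less than 1.5-fold. Without the 4 libraries numbered 6 and 7, 10 of the 17 kept their call with the block and 7 lost it, among them all 3 of the lower genes. Without negative library 3, 3 members were higher and 2 lower without the block, and without pair 3, 11 were higher and 4 lower with it.

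**Figure D1:**
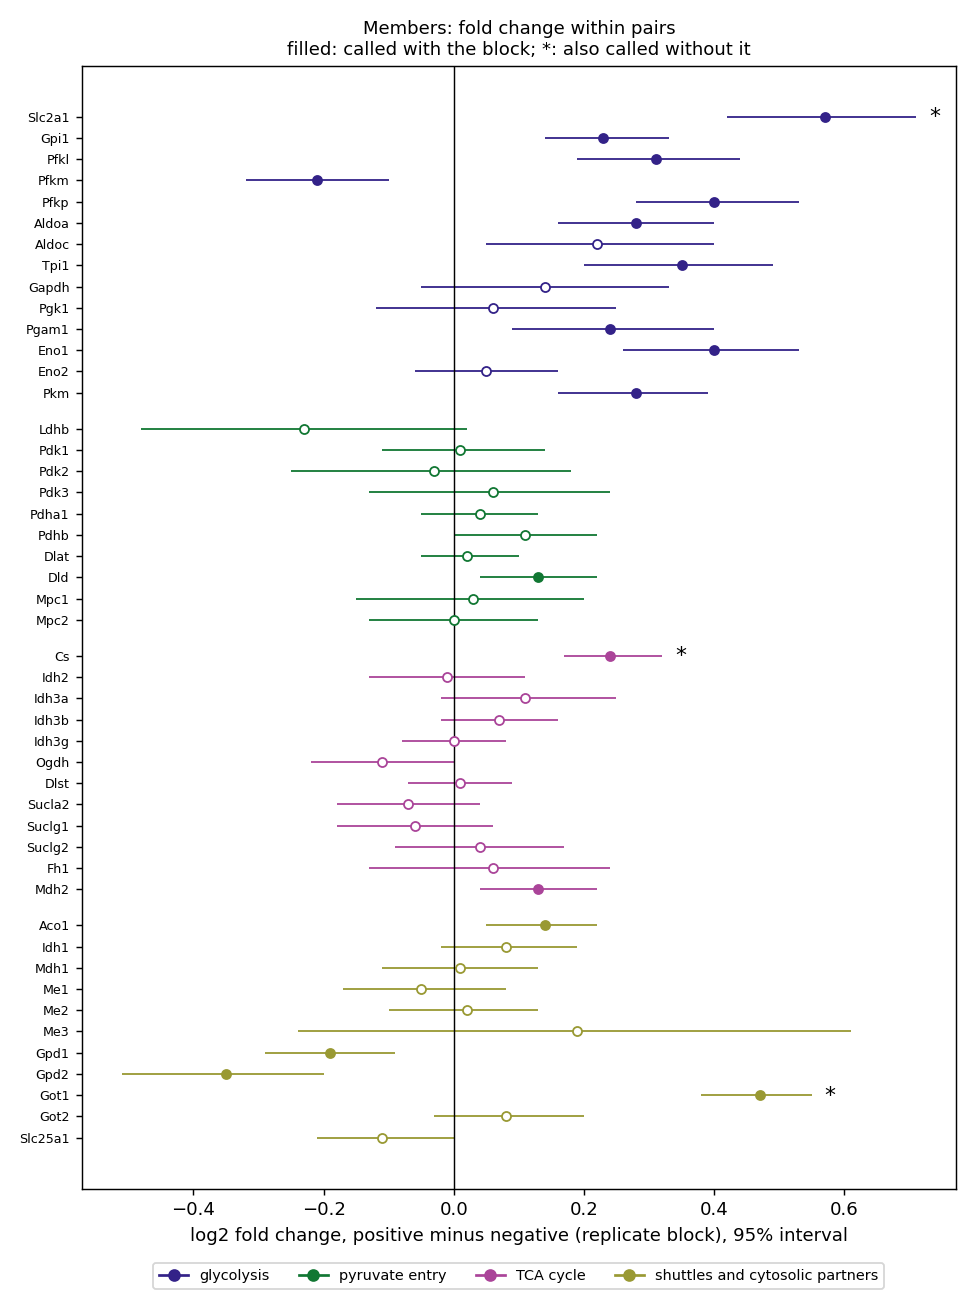
Log2 fold change of each of the 47 genes, positive minus negative within pairs, with its 95% interval; filled points passed the test with the block and stars mark the 3 genes that also passed without it. All glycolytic points but that of Pfkm lie right of 0, and the points of Slc2a1 and Got1 lie farthest to the right.

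The calls were spread unevenly over the sections. Of the 14 glycolytic genes, 9 rose and 1 fell within pairs, and their median log2 fold change was 0.26, beside 0.00 over all genes. Of the 10 pyruvate entry genes 1 rose (median 0.03), of the 12 TCA cycle genes 2 rose (median 0.02), and of the 11 shuttle genes 2 rose and 2 fell (median 0.02). The summed level of the glycolytic genes was 2240 ± 568 CPM for negative and 2700 ± 665 CPM for positive cells (SD over 7 libraries each), and within a pair the positive library held 1.09 to 1.38 times the negative one, higher in 7 of 7 pairs. The same ratio was 0.983 to 1.08 for pyruvate entry, 0.928 to 1.1 for the TCA cycle and 0.903 to 1.1 for the shuttles. These sums are over read counts, so long and abundant transcripts weigh most, and no test was made of them.

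**Figure D2:**
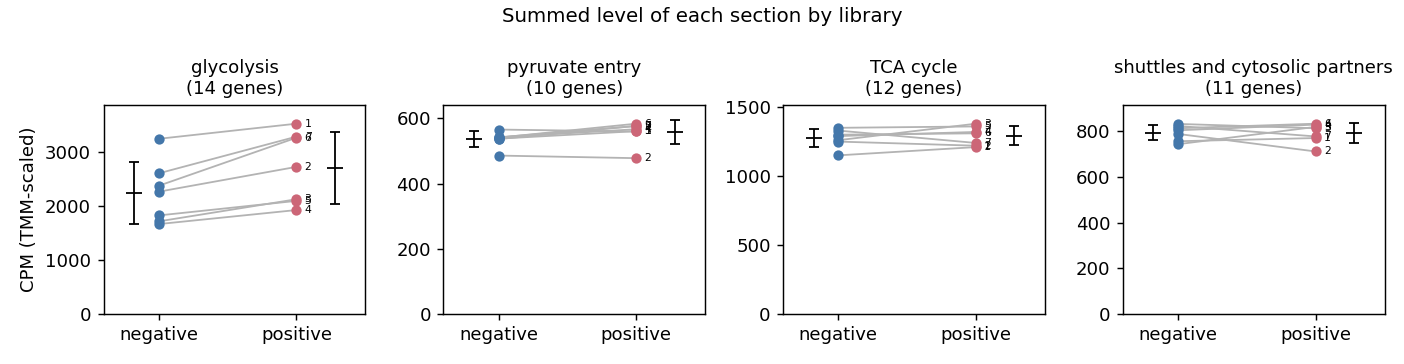
Summed CPM of each section in every library, negative (blue) joined to the positive (red) library of the same number, with the group mean and SD beside them. Glycolysis spans 1660 to 3240 CPM over negative libraries and rises along every line, while the other 3 sections span a narrow range and their lines cross.

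The sequences that stand before the start of a few of these genes are shown because the glycolytic genes moved together from library to library. The letters ACGTG, on either strand, form the core that hypoxia-inducible factor is known to bind, and they lie inside CACGTG, a motif bound by the E-box factors. RefSeq promoters (250 bases before to 50 after a start, build GRCm38.p6) were at hand for 44 of the 47 genes. ACGTG or its reverse complement stood in a promoter of 8 of the 14 glycolytic genes, and in 21.8% of all genes. Of the genes with a promoter at hand, it stood in 3 of 10 for pyruvate entry, 2 of 11 for the TCA cycle and 4 of 9 for the shuttles. Counted by promoter, the shares were 43.5%, 23.1%, 43.8% and 33.3% for the 4 sections in turn, and 19.6% of all 32851 promoters. The TCA cycle share rests on several starts of Ogdh, whose stretches partly overlap, and on the promoter of Idh3g. Within glycolysis it stood in 4 of the 9 genes that rose within pairs (Slc2a1, Aldoa, Pgam1 and Pkm) and in 4 of the other 5. Gpi1, Pfkl, Pfkp, Tpi1 and Eno1 also rose and had it in no promoter. CACGTG stood in 1 of the 23 glycolytic promoters (4.35%), and in 7.15% of all promoters. Below are the promoter of Slc2a1, promoters of Aldoa and Pkm that hold the letters (both genes have further starts without them), and those of Cs and Got1, in which they do not occur; the capitals mark ACGTG and its reverse complement CACGT. The match is a description of the letters and not of binding.
Slc2a1, chr4:119108495-119108794, plus strand: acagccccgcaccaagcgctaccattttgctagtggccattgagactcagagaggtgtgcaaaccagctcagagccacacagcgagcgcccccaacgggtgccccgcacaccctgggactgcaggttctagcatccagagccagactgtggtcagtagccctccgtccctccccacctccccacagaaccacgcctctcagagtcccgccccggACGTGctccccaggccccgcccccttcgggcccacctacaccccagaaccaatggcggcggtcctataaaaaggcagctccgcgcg
Aldoa, chr7:126799205-126799504, minus strand: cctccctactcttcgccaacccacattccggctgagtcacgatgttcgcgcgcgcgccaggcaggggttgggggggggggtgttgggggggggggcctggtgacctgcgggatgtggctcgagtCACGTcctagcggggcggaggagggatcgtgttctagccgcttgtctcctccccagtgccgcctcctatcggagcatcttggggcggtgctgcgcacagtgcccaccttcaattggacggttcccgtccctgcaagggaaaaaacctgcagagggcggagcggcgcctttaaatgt
Pkm, chr9:59656977-59657276, plus strand: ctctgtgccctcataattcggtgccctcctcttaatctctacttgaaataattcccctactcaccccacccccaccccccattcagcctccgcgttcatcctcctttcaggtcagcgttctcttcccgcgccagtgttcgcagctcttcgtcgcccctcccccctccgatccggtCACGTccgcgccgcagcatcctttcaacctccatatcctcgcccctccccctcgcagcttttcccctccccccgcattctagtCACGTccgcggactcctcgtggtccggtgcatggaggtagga
Cs, chr10:128337477-128337776, plus strand: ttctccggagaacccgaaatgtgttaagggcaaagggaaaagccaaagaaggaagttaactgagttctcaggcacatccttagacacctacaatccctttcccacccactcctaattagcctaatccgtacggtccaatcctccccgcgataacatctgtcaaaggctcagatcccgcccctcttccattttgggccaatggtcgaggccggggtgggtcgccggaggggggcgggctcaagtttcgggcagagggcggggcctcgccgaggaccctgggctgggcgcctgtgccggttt
Got1, chr19:43524556-43524855, minus strand: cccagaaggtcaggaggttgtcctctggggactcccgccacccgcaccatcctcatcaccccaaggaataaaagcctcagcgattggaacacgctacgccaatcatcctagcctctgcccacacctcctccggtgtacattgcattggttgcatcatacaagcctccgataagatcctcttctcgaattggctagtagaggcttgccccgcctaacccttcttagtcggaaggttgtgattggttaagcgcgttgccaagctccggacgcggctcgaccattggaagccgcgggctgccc

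Slc2a1 (chr4:119108711-119137983, plus strand, GENCODE M21) encodes GLUT1, a glucose transporter with a high affinity for glucose. It ranged from 57.8 to 75.3 CPM in negative libraries (median 66.3) and from 84.4 to 115 CPM in positive ones (median 96.8). Every positive library thus lay above every negative one, which held for 1 of the 47 members and for 3.86% of all genes tested. The log2 fold change was 0.57 ± 0.08 (SE, n = 7 against 7; edgeR adjusted p = 0.000279), a 1.48-fold rise, and the gene was higher in 7 of 7 pairs. The call held when any 1 library was left out and without libraries 6 and 7 (0.54; edgeR adjusted p = 0.00177). Positive libraries 6 and 7, the highest in endothelial and macrophage markers, were also the highest in Slc2a1.

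Of the genes for the early steps, which spend ATP and split the sugar, Gpi1, Pfkl, Pfkp, Aldoa and Tpi1 rose within pairs, Pfkm fell and Aldoc did not pass (edgeR with the block, adjusted p = 0.0669). Gpi1, which turns glucose 6-phosphate into fructose 6-phosphate, ranged from 85.1 to 197 CPM (median 114) in negative and from 96.0 to 206 CPM (median 148) in positive libraries. The groups overlapped almost entirely, yet the positive library was the higher of its pair 7 times of 7, by 0.23 ± 0.04 log2 units (edgeR with the block, adjusted p = 0.00375; 0.588 without it). Aldoa, the main aldolase and the most abundant of the 47 genes per kilobase, ranged from 599 to 1120 CPM (median 853) and from 693 to 1250 CPM (median 996). It rose by 0.28 ± 0.05 within pairs (edgeR adjusted p = 0.00481; 0.344 without the block), in 7 of 7 pairs, and its level per kilobase was 523 and 637 RPKM (CPM per kilobase of transcript). Tpi1, which interconverts both triose phosphates made by aldolase, ranged from 121 to 343 CPM (median 192) and from 140 to 357 CPM (median 235). Its rise of 0.35 ± 0.07 was seen in 7 of 7 pairs (edgeR with the block, adjusted p = 0.00392; 0.514 without).

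Phosphofructokinase, which commits the sugar to glycolysis, is built from 3 gene products, and they moved in different directions. Pfkl, the liver type, ranged from 79.5 to 260 CPM (median 132) in negative and from 96.4 to 254 CPM (median 173) in positive libraries, a rise of 0.31 ± 0.06 within pairs (edgeR adjusted p = 0.00318; 0.670 without the block) in 6 of 7. Pfkp, the platelet type, ranged from 58.9 to 177 CPM (median 92.0) and from 83.6 to 182 CPM (median 127), a rise of 0.40 ± 0.06 in 7 of 7 pairs (edgeR adjusted p = 0.000602; 0.446 without the block). Pfkm, the muscle type, went the other way. It ranged from 63.2 to 85.5 CPM (median 79.4) and from 60.6 to 75.0 CPM (median 67.4), a fall of 0.21 ± 0.05 log2 units in 6 of 7 pairs (edgeR with the block, adjusted p = 0.0127; 0.0756 without). Negative library 3, which stood apart in fibroblast and beta cell markers, was the lowest of its group in Pfkm. Without it, or without positive library 1, the fall passed the test without the block as well (edgeR adjusted p between 0.00656 and 0.137 over the 14 fits without 1 library). Without the libraries numbered 6 and 7 Pfkm was no longer called with the block (-0.18; edgeR adjusted p = 0.0861).

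Because a share within an enzyme family does not depend on how libraries are scaled, the isoforms were also compared as shares of reads per kilobase. Pfkp held 26.8% ± 2.52 of the 3 phosphofructokinases among negative and 31.0% ± 1.45 among positive cells (SD over 7 libraries each), 4.29 points more, in 7 of 7 pairs (two-sided exact permutation test over libraries, p = 0.00233, Benjamini-Hochberg adjusted over 5 shares 0.0117). The adjusted exact p was 0.0794 without the libraries numbered 6 and 7, where the difference was 4.33 points. The Pfkm share was 33.2% ± 8.38 against 25.3% ± 7.06, lower in 7 of 7 pairs. Of Eno1 plus Eno2, leaving out the third expressed enolase gene Eno3 (27.2 and 21.0 RPKM), Eno2 held 66.8% ± 9.17 against 61.3% ± 10.1, 5.48 points less. Its adjusted exact permutation p was 0.505 over libraries, with groups that overlapped widely, and 0.0391 in the sign-flip test over the 7 pairs. The share of Pdk1 in Pdk1, Pdk2 and Pdk3 (48.6% and 48.7%), the share of Aldoc in Aldoa plus Aldoc (1.09% and 1.05%) and the Me3 share of the 3 malic enzymes (3.17% and 3.71%) had adjusted exact permutation p values of 0.981, 0.781 and 0.505.

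In the later steps, which gain ATP, Eno1, Pkm and Pgam1 rose within pairs, none fell, and Gapdh, Pgk1 and Eno2 did not pass. Eno1, the widespread enolase, ranged from 22 to 68.3 CPM (median 38.8) and from 30.6 to 72.6 CPM (median 51.9), a rise of 0.40 ± 0.06 in 7 of 7 pairs (edgeR with the block, adjusted p = 0.00111; 0.467 without). Pkm, pyruvate kinase, which makes pyruvate and ATP, ranged from 364 to 745 CPM (median 537) and from 456 to 841 CPM (median 639), a rise of 0.28 ± 0.05 in 7 of 7 pairs (edgeR adjusted p = 0.00383; 0.403 without the block). In both genes the groups overlapped while every pair moved the same way. Pgam1, a phosphoglycerate mutase, ranged from 23.7 to 55.2 CPM (median 28.8) and from 25.2 to 53.7 CPM (median 37.5), a rise of 0.24 ± 0.07 in 6 of 7 pairs (edgeR with the block, adjusted p = 0.0317; 0.604 without). The Pgam1 call was lost when pair 2, 5, 6 or 7 was left out (adjusted p up to 0.101). Gapdh, which makes the NADH of glycolysis, ranged from 7.96 to 10.2 CPM and from 8.47 to 12 CPM (0.14 ± 0.09; edgeR adjusted p = 0.395, and 0.281 with the block). Pgk1, Aldoc and Eno2 also did not pass either test, with log2 differences of 0.06, 0.22 and 0.05 within pairs.

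Reads of several of these genes may be split among copies. Of all windows of 50 bases, the read length, in the Gapdh transcript, 82.5% occurred in exons of 222 other annotated genes. For Eno1, Pgk1, Pgam1 and Pkm, 72.2%, 68.0%, 41.5% and 34.4% of the windows occurred in 9, 5, 4 and 8 other genes. The counts of Gapdh and Pgk1 were low, 9.01 ± 0.859 and 5.59 ± 1.03 CPM in negative libraries (SD, n = 7). How reads that match several places were counted is not given in the sources used here, so the levels of the 12 members with over 20% of such windows are uncertain. By contrast 24 of the 47 members, Got1 among them, had no such window, Slc2a1 had 1.74% and Cs 4.00%.

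**Figure D3:**
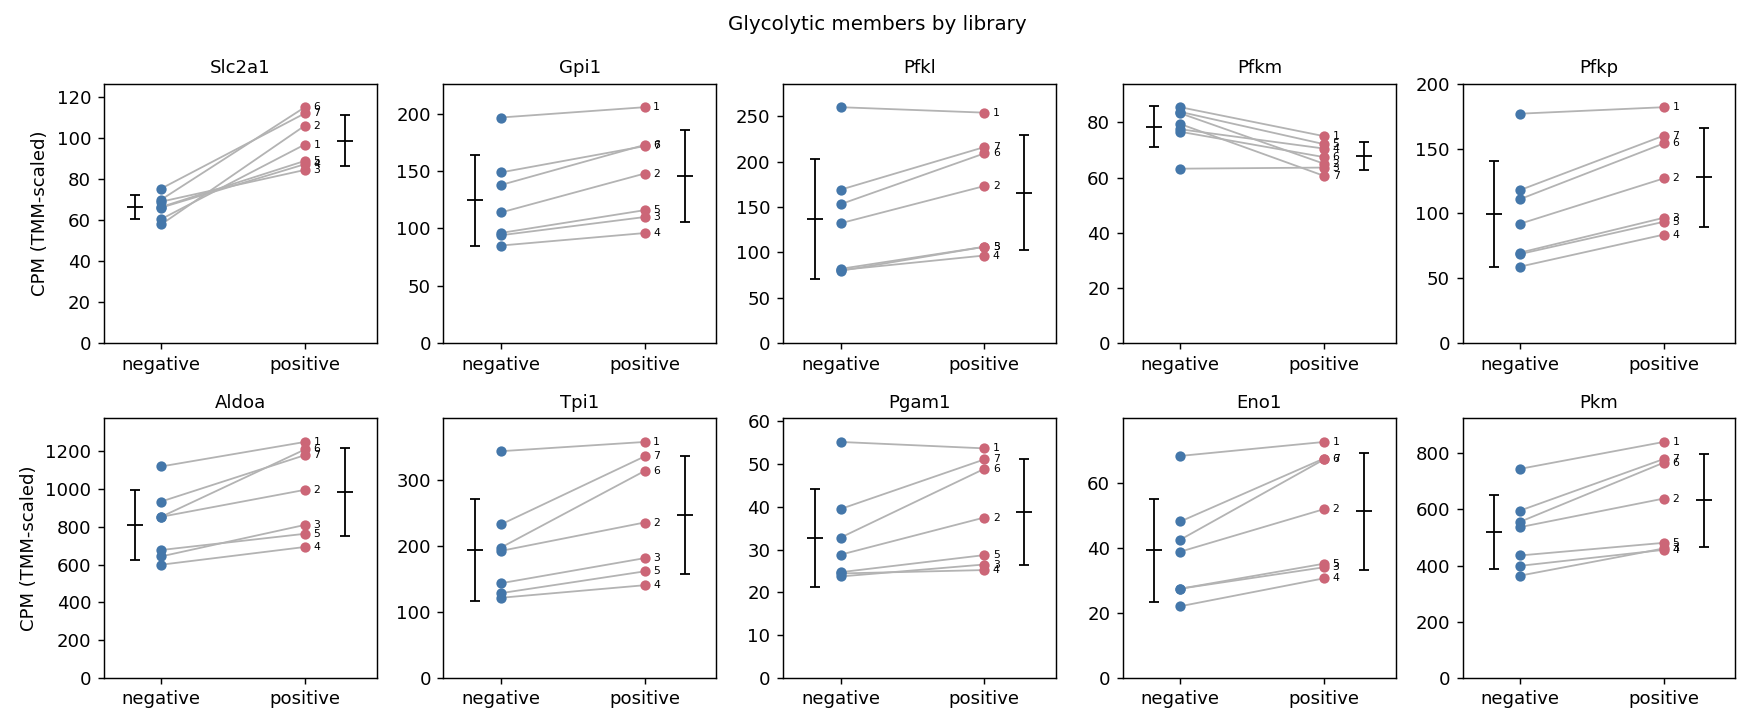
CPM of the 10 glycolytic genes called with the block, in every library, negative (blue) joined to the positive (red) library of the same number, which stands beside its point, with group means and SD as bars. Slc2a1 is the 1 gene whose groups do not overlap; in Gpi1, Aldoa, Tpi1, Eno1 and Pkm the groups overlap and every line rises.

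Libraries of the same number shared most of their glycolytic level. In the summed level the pair numbered 1 was the highest of both groups (3240 CPM in its negative and 3520 CPM in its positive library) and the pair numbered 4 the lowest (1660 and 1920 CPM). The highest negative library thus held 1.95 times the lowest, while the fractions of a pair differed at most 1.38-fold, with a median of 1.21-fold. Split into parts, the variation in log2 CPM of a glycolytic gene lay to a median of 84.2% between pairs, against 59.8% over all genes tested, 77.4% for pyruvate entry, 51.7% for the TCA cycle and 42.4% for the shuttles. With 7 pairs in 14 libraries, a large share falls between pairs even where same-numbered libraries are no more alike than others. Slc2a1 was the reverse of its section, with 12.1% between pairs and 79.0% between the fractions. The relative SD in negative libraries ran from 8.87% to 48.2% over the glycolytic genes (median 28.6%), with a median of 6.57% over TCA cycle genes.

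**Figure D4:**
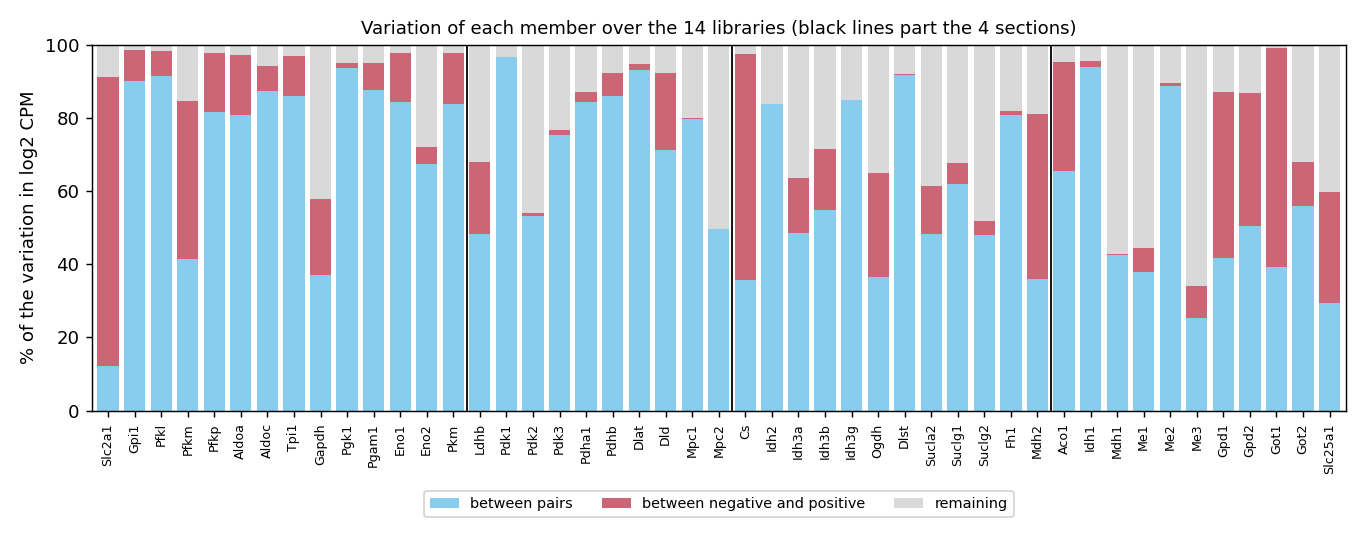
For each of the 47 genes, the percent of the variation in log2 CPM over the 14 libraries that lay between pairs, between the negative and positive fraction, and in neither. Most glycolytic bars are filled by pairs, Pdk1 almost wholly, and Slc2a1, Cs and Got1 hold the largest parts between fractions of their sections.

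Of the pyruvate entry genes 1, Dld, passed, and only with the block. Mpc1 and Mpc2, the subunits of the carrier that brings pyruvate into mitochondria, had log2 differences of 0.04 ± 0.12 and 0.00 ± 0.07 (edgeR adjusted p = 0.901 and 0.995). Pdha1, the catalytic subunit of pyruvate dehydrogenase, ranged from 122 to 144 CPM (median 137) and from 113 to 149 CPM (median 141), a difference of 0.04 ± 0.06 with a 95% interval of -0.10 to 0.18. Pdhb, its partner and the most abundant gene of this section per kilobase, ranged from 64.6 to 108 CPM (median 82.5) and from 79.4 to 105 CPM (median 88.2), with 0.11 ± 0.05 within pairs (edgeR adjusted p = 0.148). Dld, the dihydrolipoyl dehydrogenase that several complexes share, ranged from 100 to 122 CPM (median 115) and from 98.9 to 139 CPM (median 127). It rose by 0.13 ± 0.04 in 6 of 7 pairs (edgeR with the block, adjusted p = 0.0414; 0.308 without), and this call was kept in 1 of the 7 fits without 1 pair.

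Pdk1 was the member with the largest part of its variation between pairs. It ranged from 42.6 to 101 CPM (median 52.7) in negative and from 40.2 to 92.2 CPM (median 50.4) in positive libraries. The difference was 0.01 ± 0.06 log2 units within pairs (95% interval -0.11 to 0.14; edgeR adjusted p = 0.894), and 96.5% of its variation lay between pairs. Both of its highest libraries were those numbered 1, which were also the highest in summed glycolytic genes. Pdk2 and Pdk3, the other 2 kinases of the set, had differences of -0.03 ± 0.10 and 0.06 ± 0.09 within pairs, and Ldhb, a subunit of lactate dehydrogenase, had -0.23 ± 0.11 (edgeR adjusted p = 0.181).

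In the TCA cycle the entry enzyme rose in both fits and 1 other gene within pairs. Cs, citrate synthase (chr10:128337734-128362479, plus strand), which joins acetyl-CoA to oxaloacetate, ranged from 67 to 78.7 CPM (median 73.8) in negative and from 78.4 to 97.1 CPM (median 85.3) in positive libraries. The groups touched at a single pair of values, negative library 1 (78.7) and positive library 2 (78.4). The log2 fold change was 0.24 ± 0.06 (edgeR adjusted p = 0.0170; 0.000808 with the block), in 7 of 7 pairs. The call without the block was lost when negative library 2, 4 or 5 or positive library 6 or 7 was left out (adjusted p up to 0.0686) and without the 4 libraries numbered 6 and 7 (0.22; adjusted p = 0.141), while with the block it held when any 1 pair was left out and without pairs 6 and 7 (edgeR adjusted p = 0.0138).

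Mdh2, the malate dehydrogenase of the cycle, ranged from 101 to 123 CPM (median 109) and from 116 to 128 CPM (median 123). It was higher in 7 of 7 pairs, by 0.13 ± 0.04 (edgeR with the block, adjusted p = 0.0481; 0.154 without), a call kept in 1 of the 7 fits without 1 pair. Ogdh, which sets the pace of the 2-oxoglutarate step, ranged from 208 to 248 CPM (median 239) and from 199 to 246 CPM (median 211). Its difference of -0.11 ± 0.05 within pairs, lower in 6 of 7, did not pass (edgeR adjusted p = 0.157). Fh1, fumarate hydratase (87.7 and 89.8 RPKM), was with Idh2 (87.7 and 87.4 RPKM) the most abundant of the 12 cycle members per kilobase. Fh1 ranged from 134 to 276 CPM (median 253) and from 177 to 278 CPM (median 241). In Fh1 the libraries numbered 1 and 2 were the lowest of both groups, and the fractions differed by 0.06 ± 0.08 within pairs (edgeR adjusted p = 0.680). The other 8 cycle members, Idh2 among them, had log2 differences from -0.07 to 0.11 within pairs.

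Among the shuttle genes, 1 of the malate-aspartate shuttle rose and both of the glycerol phosphate shuttle fell within pairs. Both shuttles carry the electrons of cytosolic NADH into mitochondria. Got1, the cytosolic aspartate aminotransferase of the malate-aspartate shuttle (chr19:43499752-43524605, minus strand), ranged from 50.6 to 76.3 CPM (median 59.9) in negative and from 72.0 to 98.9 CPM (median 86.6) in positive libraries. It rose by 0.46 ± 0.10 log2 units (edgeR adjusted p = 0.00840; 7.54e-06 with the block), 1.38-fold, in 7 of 7 pairs. The call held without any 1 library and without libraries 6 and 7 (0.49; edgeR adjusted p = 0.0267). Its mitochondrial counterpart Got2 had 0.08 ± 0.05 within pairs, and Mdh1, the cytosolic malate dehydrogenase and the most abundant of the 11 genes per kilobase (114 RPKM in both groups), ranged from 215 to 267 CPM and from 226 to 257 CPM, with 0.01 ± 0.05 (edgeR adjusted p = 0.297 and 0.899).

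Gpd1, the cytosolic enzyme of the glycerol phosphate shuttle, ranged from 45.4 to 54.1 CPM (median 49.4) and from 38.7 to 48.3 CPM (median 41.9), a fall of 0.19 ± 0.05 in 7 of 7 pairs (edgeR with the block, adjusted p = 0.0143; 0.0948 without). Gpd1 was the 1 member that was lower in all 7 pairs, where 6.93% of all genes were, while 11 members (23.4%) were higher in all 7, against 11.1% of all genes. Gpd2, the mitochondrial enzyme, which is known to be abundant in beta cells, ranged from 78.0 to 138 CPM (median 122) and from 74.4 to 109 CPM (median 89.0), a fall of 0.35 ± 0.07 in 6 of 7 pairs (edgeR with the block, adjusted p = 0.00669; 0.0858 without). Without the block, Gpd1 passed when positive library 5 was left out and Gpd2 when negative library 3 was (edgeR adjusted p = 0.0464 and 0.00870). In negative library 3 Gpd2 was at 78.0 CPM, against 101 to 138 CPM in the other negative libraries, and this library held 1450 CPM of pericyte and fibroblast markers and the lowest beta cell marker sum of its group. Without pairs 6 and 7 neither was called with the block, with log2 differences of -0.13 for Gpd1 and -0.34 for Gpd2 (edgeR adjusted p = 0.109 and 0.0718). The beta cell marker sum was lower in the positive library in 6 of 7 pairs, and the part of either marker list in these falls was not tested.

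Aco1, the cytosolic aconitase, which also binds iron-responsive RNA elements, ranged from 41.4 to 50.8 CPM (median 49.7) and from 46.6 to 56.8 CPM (median 54.1). It rose by 0.14 ± 0.04 in 7 of 7 pairs (edgeR with the block, adjusted p = 0.0270; 0.236 without), a call kept in 1 of the 7 fits without 1 pair. The malic enzymes Me1, Me2 and Me3, the citrate carrier gene Slc25a1 and the cytosolic isocitrate dehydrogenase gene Idh1 had log2 differences from -0.11 to 0.19 within pairs and did not pass. Me3 was near the lower end of what could be measured, with 605 reads over all 14 libraries.

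**Figure D5:**
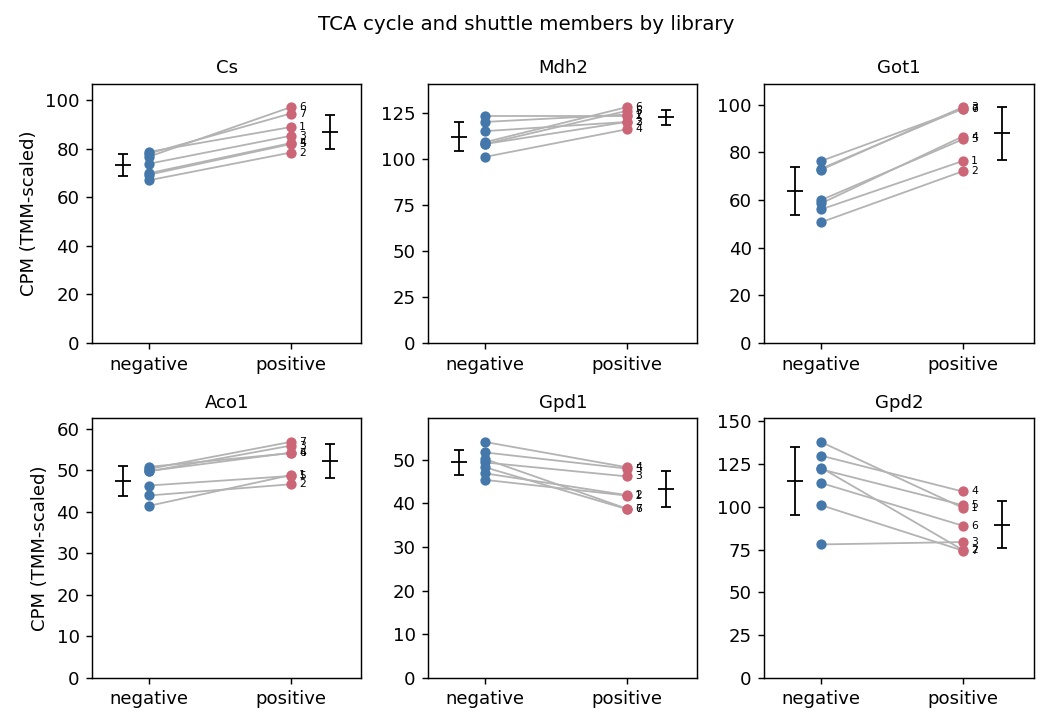
CPM of the 6 TCA cycle and shuttle genes called with the block, in every library, negative (blue) joined to the positive (red) library of the same number, with group means and SD as bars. All 7 lines rise in Cs, Mdh2, Got1 and Aco1, all 7 fall in Gpd1, and 6 of 7 fall in Gpd2, where the line of pair 3 does not.

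Other genes of the same pathways were read from a list of 53, of which 47 were tested, with a median log2 fold change of 0.03. Without the block 4 passed, each of them higher, beside 6.40% higher and 1.63% lower of all genes. With it 9 were higher and 4 lower, beside 11.8% higher and 7.77% lower of all genes. Of the genes that beta cells are known for, Slc2a2, encoding the glucose transporter GLUT2, was at 145 ± 41.2 and 121 ± 37.8 CPM (SD, n = 7 each; edgeR adjusted p = 0.574). Among those lower with the block were Eno3, Pklr and Acly, the enzyme that splits exported citrate, by 0.39, 0.30 and 0.31 log2 units (edgeR adjusted p = 0.0177, 0.0432 and 0.0142).

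Several genes that beta cells are known to keep low were higher in positive cells. Hk1, a hexokinase with a high affinity for glucose, went from 8.64 ± 3.38 to 25.2 ± 12.6 CPM (log2 fold change 1.54 ± 0.35; edgeR adjusted p = 0.0140). Slc16a1, the lactate and pyruvate transporter MCT1, went from 1.81 ± 0.543 to 5.06 ± 2.08 CPM (1.47 ± 0.26; edgeR adjusted p = 0.00161). Ldha, the lactate dehydrogenase subunit, ranged from 0.596 to 23.1 CPM in negative and from 8.72 to 54.7 CPM in positive libraries, higher in 7 of 7 pairs (edgeR with the block, adjusted p = 0.0185; 0.194 without). In all 3 genes positive libraries 6 and 7, which held the most macrophage and endothelial marker reads, were the highest of the 14. Hk3, a hexokinase known from blood cells, rose from 0.429 ± 0.182 to 6.59 ± 6.43 CPM (3.85 ± 0.58; edgeR adjusted p = 0.000522), again with these 2 libraries the highest, and Pgd of the pentose phosphate pathway rose by 0.39 ± 0.12 (edgeR adjusted p = 0.0495).

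With the block alone Slc16a3, Pfkfb3, Taldo1 and Glud1 were also higher, by 1.69, 0.49, 0.30 and 0.19 log2 units (edgeR adjusted p = 0.0336, 0.00392, 0.00549 and 0.0213). Pcx, pyruvate carboxylase, was at 130 ± 13.4 and 122 ± 19.0 CPM (edgeR adjusted p = 0.673). Pdk4, a further pyruvate dehydrogenase kinase, was at 8.28 ± 5.06 and 3.70 ± 1.67 CPM (-1.17 ± 0.39; edgeR adjusted p = 0.0906, and 0.206 with the block).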

How the data were processed

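Polyadenylated RNA of 14 libraries (7 negative, 7 positive) was sequenced with a directional kit in reads of 50 bases. Per the labels, the authors aligned the reads to GRCm38 with Subread and counted them per gene with featureCounts; which versions, annotation, strand setting and rule for multiply matching reads were used is not given in the sources used here. Values are raw counts as deposited, 11060144 to 24577025 per library. Counts were filtered with filterByExpr, scaled by TMM and tested with edgeR 4.0.16 (robust quasi-likelihood fit, R 4.3.3), negative against positive over all 14 libraries, with Benjamini-Hochberg adjustment over all 16350 genes tested and a threshold of 0.05. The procedure was tested on simulated counts, with differences between pairs only in those given to the fit with the block. In the draw kept, the share of false calls was above the threshold without the block and below it with the block. The fits were thus run on different counts, so their shares cannot be set against each other.

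Same-numbered libraries deviated together from their group means in all 7 pairs (correlation 0.20 to 0.54, against a median of -0.13 for different numbers), a pairing that comes from the data and the numbers in the sample titles; so results are also given with the number as a block. Shares of isoforms used exact permutation tests (scipy 1.17.1), for which the smallest possible two-sided p was 0.000583 over libraries and 0.0156 over pairs. CPM are scaled by TMM, and positions and lengths come from GENCODE M21 (GRCm38). The length is that of the longest protein-coding transcript, chosen after exon unions had been seen to give too long an Aldoa, which has 2 annotation records, and before shares were computed.

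Members and lists were chosen with earlier results of these data known. Genes are named if called without or with the block, if the most abundant of their section per kilobase, or if at an entry or rate-limiting step, and listed neighbours in the pathway likewise, of which 2 are not reported here. The windows of 50 bases, the promoter letters, the split of variation into pairs and fractions, the within-pair section ratios and the fit without the 2 libraries numbered 1 were chosen after seeing the data. Alternatives were RLE scaling, DESeq2 1.42.0, no filter on low counts, the block, and leaving out libraries or pairs.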

Additional observations from a re-analysis of the deposited data

Results flagged for a closer look

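In each of the 47 genes and both groups of 7 libraries, the highest and the lowest library were compared with the rest, and a library was noted where its gap to the nearest other took more of the group's range than Dixon's limit at 95% allows for 7 values. This held in 6 of 94 cases (6.38%), and chance gives about 1 in 20. Negative library 1 was the highest in Pdk1, at 101.0 CPM with the next at 61.8 CPM, and in Aldoc, at 28.6 CPM with the next at 18 CPM. Negative library 3 was the lowest in Pfkm, at 63.2 CPM with the next at 76.6 CPM, and in Sucla2, a subunit of succinyl-CoA ligase, at 51.9 CPM with the next at 57.6 CPM. Negative library 2 was the highest in Ldhb, at 11.5 CPM with the next at 8.34 CPM. Positive library 1 was the lowest in Suclg2, another succinyl-CoA ligase subunit, at 17 CPM with the next at 19.5 CPM.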

How the results depend on the processing

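No value reversed a called direction. The replicate block changed the counts most: members called higher went from 3 to 14 and lower from 0 to 3, glycolysis from 1 to 10 called, pyruvate entry from 0 to 1, the TCA cycle from 1 to 2 and the shuttles from 1 to 4, while all genes went from 1047 to 1930 higher and from 266 to 1270 lower. Of the shares, the block changed the call of Eno2 (-5.48 points) and no other. With the block and without libraries 6 and 7, the counts were 10 members higher, 8 in glycolysis, and 514 of all genes lower. Without libraries 6 and 7 and without the block, 0 TCA cycle genes, 536 higher and 45 lower of all genes were called, and the Pfkp share difference of 4.33 points was not. DESeq2 called 3 members lower (Pfkm, Gpd1 and Gpd2), 2 genes in glycolysis, 3 in the shuttles and 499 of all genes lower. With no filter on low counts, 0 TCA cycle genes were called. Leaving out 1 library gave 2 to 3 members higher and 0 to 2 lower, 1 to 2 called in glycolysis, 0 in pyruvate entry, 0 to 1 in the TCA cycle and 1 to 2 in the shuttles, with 825 to 1267 of all genes higher and 140 to 616 lower (616 without negative library 3, 140, 160 and 162 without positive library 6, 3 or 7). Leaving out 1 pair with the block gave 10 to 13 members higher and 3 to 4 lower, 9 to 11 in glycolysis, 0 to 1 in pyruvate entry, 1 to 2 in the TCA cycle and 3 to 4 in the shuttles, with 1411 to 2116 of all genes higher (1673 without pair 1, 2116 without pair 3) and 1159, 940, 1733, 998, 828, 752 and 898 lower without pairs 1 to 7 in turn. The causes of these changes were not tested. RLE scaling, and leaving out the 2 libraries numbered 1, kept 3 members higher and 0 lower. At this depth Adm, Me3, Slc16a1, Hk3 and Slc16a3 rest on few reads (232, 605, 893, 901 and 986 over all 14 libraries).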

Other observations

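Hypoxia-inducible genes outside the 47 were read as a further list of 12, of which 11 were tested. Without the block 1 passed, which was higher, and with it 5 were higher and 2 lower, beside 11.8% higher and 7.77% lower of all genes. Ddit4, an inhibitor of mTORC1, stood at 65.6 ± 9.93 CPM among negative and 90.7 ± 12.1 CPM among positive cells (SD over 7 libraries each; 0.46 ± 0.10 on the log2 scale; edgeR adjusted p = 0.00781), in 7 of 7 pairs. Bnip3, a mitophagy receptor, Ero1l, an oxidase of the endoplasmic reticulum, P4ha1, a collagen prolyl hydroxylase subunit, and Adm, the adrenomedullin gene, with 232 reads in all, rose by 0.28, 0.35, 0.20 and 1.17 log2 units within pairs (edgeR adjusted p = 0.0120, 0.00998, 0.0396 and 0.00928). Ankrd37 and Mxi1 fell by 0.39 and 0.22 (0.0234 and 0.0268).

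The pairs that were high in glycolytic genes were high in some of these genes too, in both fractions. Bnip3 stood at 154 and 159 CPM in negative and positive library 1, its highest values, and at 57.9 and 65.9 CPM in libraries 4, its lowest. P4ha1 stood at 218 and 252 CPM in libraries 1 and at 101 and 97.8 CPM in libraries 4. Mxi1 stood at 36.5 and 40.3 CPM in libraries 1 and at 68.7 and 55.1 CPM in libraries 4. Ndrg1 too was lower in libraries 1 (265 and 397 CPM) than in libraries 4 (415 and 459 CPM). A cell type list had its highest and lowest values in the same libraries as Bnip3, though the libraries between stood in another order. The 6 ductal markers summed to 1060 and 1230 CPM in libraries 1, the highest of each group. In libraries 4 they summed to 629 and 754 CPM, the lowest of each group. The part of ductal cells in these levels was not tested. What differed between the pairs is not given by the labels.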
